A study of Rattus norvegicus with 15 samples.

Results

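Hepatocellular carcinomas were compared here with the cirrhotic but noncancerous tissue that surrounds them, which asks what differed between tumour and surrounding liver in rats on one diet. It used 10 of the 15 samples of the series and every probe with exactly 1 gene symbol in the platform annotation: 3440 of 3757 probes, which stand for 3400 genes. The 5 carcinoma samples and the 5 noncancerous samples all came from livers of male Fischer344 rats fed for 70 weeks on a diet that was choline-deficient and L-amino acid-defined. The 5 control samples, given here only as a reference level, were normal livers of male Fischer344 rats (Fischer for 1 of them) on a basal diet for the same 70 weeks. The labels give no age, do not say whether a tumour and a cirrhotic sample with the same number came from 1 animal, and do not state that the samples of a group were separate animals, so a p-value here speaks of the spread among these samples only.

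Choline is needed to make phosphatidylcholine and to export fat from the liver as lipoprotein. Rats kept without it pass through fatty liver, cell death, regeneration and scarring to cirrhosis, and later carry hepatocellular carcinomas, tumours of hepatocytes. Hepatocytes make plasma proteins, urea and bile acids and oxidize drugs through cytochrome P450 enzymes. Cirrhotic tissue holds, beside hepatocytes, scar-forming stellate cells, bile duct cells and leukocytes. These were bulk samples, so fewer cells of a type and less RNA per cell cannot be told apart.

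Values are log2 of a ratio to the median of the same probe over all 15 arrays, normalized so that all arrays share 1 distribution. They show how a gene differed between samples and say nothing of its absolute level, so a cell type cannot be called present or absent from them and no gene's level can be set against another's. A difference is the carcinoma mean minus the noncancerous mean on this log2 scale, and "did not overlap" means that all 5 values of one group lay beyond all 5 of the other.

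Against the surrounding liver, carcinoma had higher values of Fgg (fibrinogen gamma chain), Apoe, Coro7, Nr0b2 and Actb (beta-actin). It had lower values of Tap1 and Psmb8 (peptide supply for MHC class I), Otc (urea cycle), Acsl1 and Slco1a3 (an organic anion transporter). Other antigen presentation genes, such as Psme2 (2.04) and Pdia3 (1.96), and the urea cycle gene Cps1 (1.29) were higher. The medians of these 2 lists lay above 0, at 0.28 and 0.35. As lists, ribosomal proteins and actin cytoskeleton genes lay above 0 in the median, and cytochrome P450 enzymes, growth factor receptors, aquaporins, conjugation enzymes and cytokines with their receptors below it. Of the single genes, none passed an adjusted p of 0.05 in limma (smallest 0.224), and the lists were not tested. The precision was set by 5 arrays a group: the median 95% interval reached 1.27 log2 units to either side. Many genes also shifted with their place in the numbering of the probes, so the list medians are given with and without that shift, and so are the genes that its removal moved by over 1.5 times. Of the values, 657 in 555 probes lay at the lower limit of the deposited ratios, 0.01, and within this comparison 209 of them were in noncancerous 1 and 33 in carcinoma 1, with 10 or fewer in any other sample.

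Tap1 lay further below 0 than any other gene whose groups did not overlap. The promoters of Tap1 and 4 more antigen presentation genes are shown here because such genes are known to answer to interferon. This answer runs in part through an element made of 2 copies of GAAA with any 2 bases between them. All of the promoters shown hold this element, and those of the list without it are not shown. The windows run from 250 bases before to 50 bases after the start of each gene, in the gene's own direction, from RefSeq with coordinates of the build GRCr8. Capitals mark each match to this element on either strand; on the opposite strand it reads as 2 copies of TTTC. Tap1 lies at chr20:4668494-4668793 on the minus strand, Psmb8 at chr20:4656982-4657281 on the minus strand, Tap2 at chr20:4652247-4652546 on the minus strand, B2m at chr3:129549080-129549379 on the plus strand and Psme2 at chr15:33052702-33053001 on the minus strand.
Tap1: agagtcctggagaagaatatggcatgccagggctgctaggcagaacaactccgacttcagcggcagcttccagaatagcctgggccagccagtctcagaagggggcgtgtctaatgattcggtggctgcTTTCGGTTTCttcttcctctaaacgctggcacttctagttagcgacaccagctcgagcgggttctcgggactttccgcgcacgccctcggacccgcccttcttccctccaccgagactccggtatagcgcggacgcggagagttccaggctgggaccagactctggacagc
Psmb8: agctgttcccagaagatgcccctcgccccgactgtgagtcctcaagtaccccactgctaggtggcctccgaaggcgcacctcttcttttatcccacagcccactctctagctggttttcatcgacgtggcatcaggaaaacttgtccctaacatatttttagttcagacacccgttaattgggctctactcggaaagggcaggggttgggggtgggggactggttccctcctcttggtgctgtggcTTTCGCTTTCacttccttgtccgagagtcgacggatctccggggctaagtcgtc
Tap2: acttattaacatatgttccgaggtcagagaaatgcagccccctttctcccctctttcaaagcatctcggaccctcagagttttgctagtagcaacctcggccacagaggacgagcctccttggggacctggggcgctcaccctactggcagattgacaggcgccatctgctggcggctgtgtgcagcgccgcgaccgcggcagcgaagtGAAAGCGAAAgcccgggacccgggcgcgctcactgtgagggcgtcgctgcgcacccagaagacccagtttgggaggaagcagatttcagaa
B2m: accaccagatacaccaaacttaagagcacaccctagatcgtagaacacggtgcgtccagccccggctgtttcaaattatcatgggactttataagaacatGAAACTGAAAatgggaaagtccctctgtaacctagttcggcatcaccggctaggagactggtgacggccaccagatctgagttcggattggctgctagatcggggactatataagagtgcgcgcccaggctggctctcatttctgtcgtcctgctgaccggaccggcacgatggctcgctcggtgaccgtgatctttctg
Psme2: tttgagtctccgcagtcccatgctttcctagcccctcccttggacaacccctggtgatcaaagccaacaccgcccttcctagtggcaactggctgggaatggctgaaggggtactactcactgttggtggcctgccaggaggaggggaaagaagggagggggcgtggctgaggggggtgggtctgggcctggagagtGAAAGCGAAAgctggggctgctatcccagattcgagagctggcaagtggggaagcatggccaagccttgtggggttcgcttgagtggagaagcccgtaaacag

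Of the 16 antigen processing and presentation genes measured, 14 had a promoter window, and 6 of these windows (42.9%) held the element, against 3.92% of all 33469 windows and 3.46% of the 2947 windows of genes measured on the arrays. The element stood 121 bases before the start in Tap1, 41 before it in Tap2, 4 before it in Psmb8, 150 before it in B2m, 53 before it in Psme2 and 36 before it in Ctss. A match is a description of letters and no evidence that a factor binds. In the annotation Tap2, Psmb8, Tap1 and Psmb9 follow each other on the chromosome with no other gene between them, and the windows of Tap1 and Psmb9, which point away from each other, share 44 bases. Psmb9, without the element in its window, differed by -0.69 (-2.04 to 0.65).

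Tap1 encodes a chain of the transporter that carries peptides into the endoplasmic reticulum for MHC class I. Its values were 0.74, 2.25, 0.15, -0.46 and 0.47 in noncancerous 1 to 5 and -0.55, -5.21, -5.12, -0.56 and -2.59 in carcinoma 1 to 5. All carcinoma values lay below all noncancerous ones, though carcinoma 1 and 4 lay just below noncancerous 4, and the ratios of carcinoma 2 and 3 were at the lower limit of the deposited values. The means were 0.63 ± 1.01 in noncancerous liver, -2.81 ± 2.31 in carcinoma and 1.04 ± 1.99 in control liver (SD, n = 5 each), and the difference was -3.43 (95% interval -5.46 to -1.41, limma adjusted p = 0.224). After removal of the running median it was -3.01 (-4.97 to -1.05) and the groups overlapped.

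Psmb8, a catalytic subunit of the immunoproteasome that cuts such peptides, had values of 1.01, 1.58, 0.88, -0.012 and 0.94 in noncancerous 1 to 5 and -0.18, -0.19, -1.0, -5.21 and -0.15 in carcinoma 1 to 5. Carcinoma 4 stood far below the other carcinomas. The difference was -2.23 (95% interval -3.86 to -0.59, limma adjusted p = 0.259) and -1.26 without carcinoma 4. Tap2, the partner chain of Tap1, differed by -1.57 (-2.73 to -0.40), and B2m, the light chain of MHC class I, by -1.42 (-3.08 to 0.25).

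Members of the same list lay above 0 as well. Psme2, a subunit of the interferon-inducible proteasome activator whose promoter also holds the element, had values of 0.89, -2.74, -0.63, -1.2 and -0.89 in noncancerous 1 to 5 and 0.79, 1.49, 0.76, 1.28 and 1.32 in carcinoma 1 to 5. Carcinoma 2, 4 and 5 lay above all 5 noncancerous values and carcinoma 1 and 3 just under noncancerous 1. The difference was 2.04 (95% interval 0.70 to 3.38, limma adjusted p = 0.234). RT1-Bb, the beta chain of a rat MHC class II molecule, did not overlap between groups, with values of -1.18, -1.76, -1.02, -0.58 and -0.58 in noncancerous 1 to 5 and 0.17, 0.75, 1.33, 0.43 and 0.15 in carcinoma 1 to 5 and a difference of 1.59 (0.54 to 2.65). After removal of the running median the groups of RT1-Bb overlapped. Pdia3, a chaperone disulfide isomerase that helps load class I molecules, differed by 1.96 (0.80 to 3.12), and RT1-DMa, which helps load class II molecules, by 1.06 (-0.49 to 2.61). The adjusted p was 0.224 or more for every gene named in the text, which is not repeated at each. The RT1 genes are close copies of each other, and the probes are not known here to tell them apart. When 1 sample was left out, RT1-DMa came to 0.57 without noncancerous 3.

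**Figure D1:**
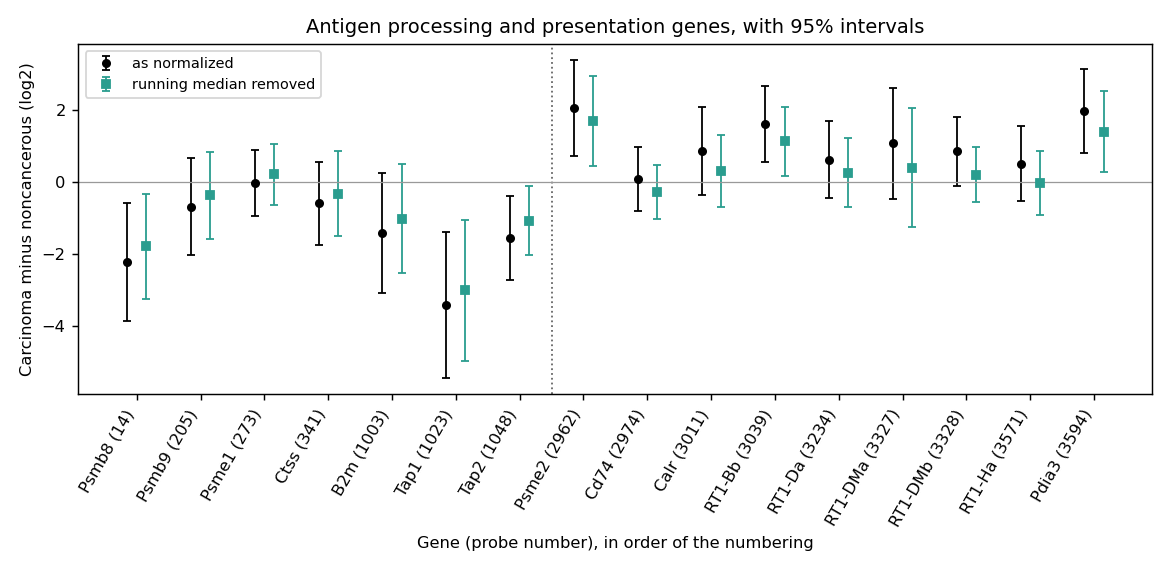
Difference between carcinoma and noncancerous liver on the log2 scale, with 95% limma intervals, for the 16 antigen processing and presentation genes in the order of their probe numbers, as normalized (circles) and with the running median removed (squares); the dotted line marks probe number 1800. All 7 genes to its left lie below 0 as normalized and all 9 to its right above 0, and with the running median removed 8 of the 16 lie above 0, where 49.8% of all genes do.

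The sign of every antigen gene followed its place in the probe numbering. The 7 genes with numbers below 1800 all lay below 0 (median -1.42) and the 9 from 1800 on all lay above it (median 0.85), where 1098 of all 1511 genes with low numbers lay below 0 and 1270 of all 1889 with high numbers above it. Over all 16 the median was 0.28, and 0.13 without carcinoma 3. It was -0.028 with noncancerous 5 left out and the running median removed together. Once a running median along the numbering was subtracted, Tap1 differed by -3.01, Psmb8 by -1.8, Tap2 by -1.08, B2m by -1.02, Psmb9 by -0.38, Psme2 by 1.7, Pdia3 by 1.39 and RT1-Bb by 1.12. The difference of Psme1, the partner of Psme2, moved from -0.046 to 0.20, and that of RT1-DMa from 1.06 to 0.39.

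The shift along the numbering held for the whole array and bears on every result here. Over the 1511 genes with numbers below 1800 the median difference was -0.50, and over the 1889 genes from 1800 on it was 0.34; the number 1800 was chosen after the values had been seen. By sample, the median of the 1688 probes below 1800 was -0.54 in carcinoma 3 and -0.61 in carcinoma 4, while the other carcinomas lay between 0.042 and 0.30 and the noncancerous samples between 0.081 and 0.37. From 1800 on the order was turned, with 0.34 in carcinoma 3, 0.42 in carcinoma 4, -0.24 to -0.018 in the other carcinomas and -0.29 to -0.093 in noncancerous liver. Normal control liver showed it too: control 2 and 4 were at -0.52 and -0.44 below 1800 and at 0.36 and 0.32 from 1800 on. The other controls lay between -0.026 and 0.12 below 1800 and between -0.11 and 0.019 from 1800 on. The values were therefore also taken after subtracting, in each array, a running median over each probe and the 50 probes to either side, which takes out anything that neighbours shared, of whatever source. What produced the shift was not tested.

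**Figure D2:**
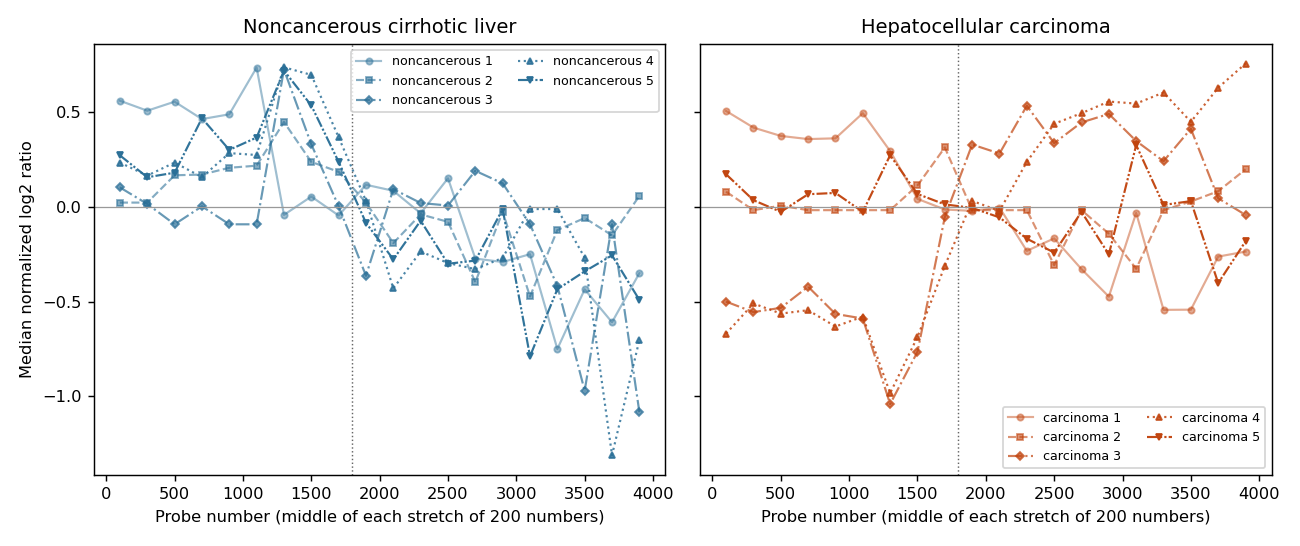
Median normalized log2 ratio in stretches of 200 probe numbers, 1 line per sample, for noncancerous liver (left) and carcinoma (right); the dotted line marks number 1800. Carcinoma 3 and 4 lie lowest at low numbers, at -1.04 and -0.98 from 1200 to 1399, and carcinoma 3 stays between -0.043 and 0.53 and carcinoma 4 between -0.022 and 0.76 from 1800 on. Carcinoma 1 and most noncancerous samples run the other way, while noncancerous 3 changes sign along both parts.

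No gene passed an adjusted p of 0.05 in limma (smallest 0.224; 0% of 3400 genes), nor with the running median removed (smallest 0.455). At an unadjusted p under 0.05 in limma, 234 genes (6.88%) were higher and 206 (6.06%) lower in carcinoma, and 44 (1.29%) did not overlap above and 49 (1.44%) below the noncancerous values. Over all probes, named or not, 497 of 3757 (13.2%) had an unadjusted p under 0.05 and 102 (2.71%) did not overlap. The gene counts split by the numbering: below 1800 the groups did not overlap for 2 genes higher and 47 lower in carcinoma, and from 1800 on for 42 higher and 2 lower. With the running median removed, 194 genes (5.71%) were higher and 139 (4.09%) lower at an unadjusted p under 0.05 in limma, and the groups did not overlap for 25 (0.735%) and 22 (0.647%) in total, spread over both parts of the numbering (11 higher and 12 lower below 1800, 14 higher and 10 lower from 1800 on). Without noncancerous 5, 2 genes (0.0588%) passed the adjusted p, Fgg and Zbtb7a. No probe passed it when any other single carcinoma or noncancerous sample was left out. In the fit without noncancerous 5, 182 genes (5.35%) were higher and 131 (3.85%) lower at an unadjusted p under 0.05 in limma.

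Fgg encodes the gamma chain of fibrinogen, the clot protein that hepatocytes secrete. Its values were -0.63, -1.6, -3.75, -0.94 and 1.48 in noncancerous 1 to 5 and 1.33, 3.79, 2.08, 1.46 and 2.76 in carcinoma 1 to 5. Noncancerous 5 was the only noncancerous sample above 0, higher than carcinoma 1 and 4. The difference was 3.37 (95% interval 1.86 to 4.88, limma adjusted p = 0.224), and 4.02 without noncancerous 5, where limma's adjusted p was 0.0075. After subtraction of the running median it was 2.93 (1.31 to 4.54). Fgb, the beta chain of the same protein, differed by -1.12 (-2.74 to 0.50), with carcinoma 1 at 2.41 and carcinoma 4 at -2.51. With a single sample dropped, Fgb came to -0.51 without carcinoma 4.

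Zbtb7a, a zinc finger repressor of transcription, had values of 0.13, -1.14, -3.03, -1.93 and 4.41 in noncancerous 1 to 5 and 3.22, 4.41, 3.39, 1.86 and 1.75 in carcinoma 1 to 5. Noncancerous 5 equalled the highest carcinoma value, and the other noncancerous samples lay below every carcinoma. The difference was 3.24 (95% interval 0.97 to 5.5, limma adjusted p = 0.240) with it, and 4.42 without it (adjusted p = 0.0075 in limma). After removal of the running median and noncancerous 5 left out, neither gene passed the adjusted p, and the differences were 3.51 for Fgg and 3.86 for Zbtb7a.

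For 22 genes the groups did not overlap either as normalized or with the running median removed, 10 higher and 12 lower in carcinoma. Of these, 9 of the 10 higher genes had numbers from 1800 on, and 10 of the 12 lower genes had numbers below 1800, so the members that met both conditions still followed the numbering. The higher gene with a low number was Actb, and the lower genes with high numbers were Crmp1, a protein of growing nerve processes, and Gja5, the gap junction protein connexin 40.

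**Figure D3:**
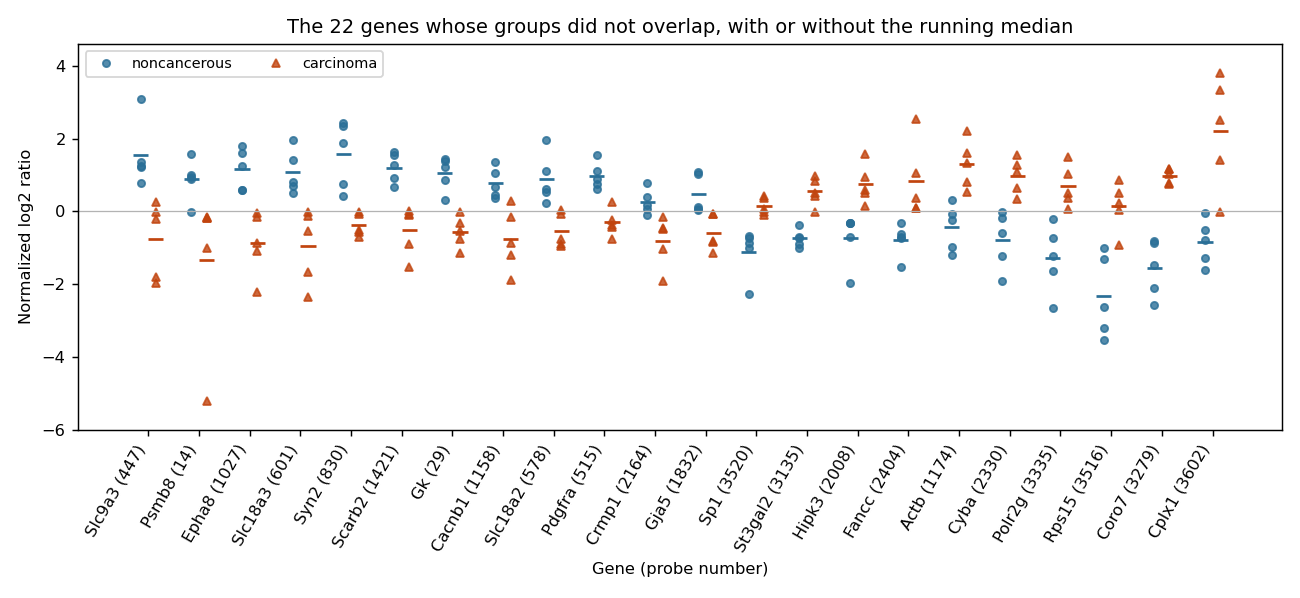
Normalized log2 ratio of each of the 5 noncancerous (circles) and 5 carcinoma samples (triangles) for the 22 genes whose groups did not overlap under both treatments of the numbering, with group means as bars and the probe number after each gene. The 12 genes on the left are lower and the 10 on the right higher in carcinoma, and single samples stand apart in Psmb8 (carcinoma 4), Slc9a3 (noncancerous 1), Hipk3 (noncancerous 5) and Sp1 (noncancerous 3).

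Actb encodes beta-actin, the main actin of non-muscle cells. Its values were -0.24, -0.97, 0.32, -1.19 and -0.072 in noncancerous 1 to 5 and 0.81, 1.59, 2.22, 1.32 and 0.54 in carcinoma 1 to 5. The carcinoma values all lay above the noncancerous ones, and the difference grew from 1.73 (0.66 to 2.79) to 2.24 (1.07 to 3.41) when the running median was removed. Coro7, a coronin of the Golgi, varied little among carcinomas, with values of -0.86, -2.11, -2.57, -0.83 and -1.48 in noncancerous 1 to 5 and 0.75, 1.16, 1.03, 0.79 and 1.17 in carcinoma 1 to 5 and a separation of 2.55 (95% interval 1.16 to 3.95, limma adjusted p = 0.224) between the means. In carcinoma Cyba, the p22-phox subunit of NADPH oxidases, differed by 1.76 (0.60 to 2.92), Polr2g, a subunit of RNA polymerase II, by 1.98 (0.61 to 3.34), and Fancc, a DNA repair protein of the Fanconi anaemia pathway, by 1.6 (0.53 to 2.67). Hipk3, a nuclear protein kinase, differed by 1.48 (0.50 to 2.45), St3gal2, a sialyltransferase, by 1.29 (0.39 to 2.2), and Sp1, a widely used transcription factor, by 1.26 (0.14 to 2.38); with the running median removed these became 0.93, 0.82 and 0.67.

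The furthest below 0 of the 22 was Slc9a3, a sodium-proton exchanger of epithelial cells, with values of 3.09, 1.25, 1.35, 0.77 and 1.22 in noncancerous 1 to 5 and 0.26, -0.018, -1.98, -0.21 and -1.8 in carcinoma 1 to 5. Noncancerous 1 was the highest by a wide margin, and the difference was -2.28 (95% interval -3.49 to -1.08, limma adjusted p = 0.224). Epha8, an ephrin receptor kinase, had values of 0.58, 1.24, 1.79, 1.61 and 0.58 in noncancerous 1 to 5 and -0.14, -1.1, -2.22, -0.88 and -0.056 in carcinoma 1 to 5, a difference of -2.04 (-3.31 to -0.77). Scarb2, a lysosomal membrane protein, differed by -1.73 (-2.71 to -0.74), Gk, the glycerol kinase that lets liver use glycerol from fat, by -1.6 (-2.65 to -0.56), Cacnb1, a calcium channel subunit, by -1.54 (-2.63 to -0.45), and Pdgfra, a receptor of platelet-derived growth factor, by -1.29 (-2.39 to -0.18). The vesicle transporters Slc18a3 and Slc18a2, which load acetylcholine and monoamines, differed by -2.02 (-3.29 to -0.75) and -1.42 (-2.53 to -0.31). For Slc9a3 the mean was 1.54 ± 0.90 in noncancerous liver, -0.75 ± 1.05 in carcinoma and -0.78 ± 0.91 in control liver, and for Scarb2 1.2 ± 0.41, -0.52 ± 0.68 and -0.53 ± 0.70 (SD, n = 5 each). The removal of the running median left Scarb2 at -0.95.

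The gene lists below were read against the whole array, where 50.5% of the 3400 genes lay below 0, the median difference was -0.014 and 44.4% of genes had numbers below 1800. Counts of members at an unadjusted p under 0.05 stand against 6.88% higher and 6.06% lower over all genes (27 higher and 191 lower of the 1511 with low numbers, 207 higher and 15 lower of the 1889 with high ones). With the running median removed they stand against 5.71% and 4.09%. Counts without overlap stand against 1.29% above and 1.44% below, or 0.735% and 0.647% with the running median removed. In 23 of the 24 lists described, the members with low numbers had a lower median than those with high numbers; the exception was the G protein subunits and regulators. With the running median removed, the median of 18 of the 24 lists came nearer to 0. In 21 of the 24 the sign was the same as normalized, with the running median removed, without noncancerous 5 and, in a setting added after the values had been seen, without carcinoma 3 and 4; the other 3 were fatty acid oxidation, collagens and matrix proteins, and the G protein list. When carcinoma 3 and 4 were left out and the running median removed together, further lists turned from below 0 to above it. They were cell cycle and DNA replication (0.10), bile acid and sterol handling (0.07) and lipid synthesis and transport (0.0065). Antigen processing and presentation turned to -0.028 without noncancerous 5 and the running median. A list with most of its members in 1 part of the numbering cannot be told apart from that part as normalized, and its share of low numbers, those below 1800, is therefore given. It was highest in aquaporins and water channels 88.9%, growth factor receptors 88.6%, cytochrome P450 81.6%, G protein subunits and regulators 70.5%, growth factors 70.4%, cell cycle and DNA replication 64.7% and solute carriers 61.4%. It lay nearer to the whole array in bile acid and sterol handling 60%, conjugation enzymes 58.6%, cytokines and receptors 58.1%, lipid synthesis and transport 57.1%, nuclear receptors 55.9%, urea cycle and ammonia enzymes 54.5% and coagulation and fibrinolysis 50%. The lists with most members at high numbers were synaptic vesicle and SNARE proteins 44.8%, antigen processing and presentation 43.8%, matrix proteases and inhibitors 43.3%, integrins and adhesion molecules 42.9%, plasma carriers and acute phase proteins 35.7%, fatty acid oxidation 35.1%, homeobox and developmental transcription factors 31.7%, actin cytoskeleton and myosin 31.4%, ribosomal proteins 30.2% and collagens and matrix proteins 23.3%.

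**Figure D4:**
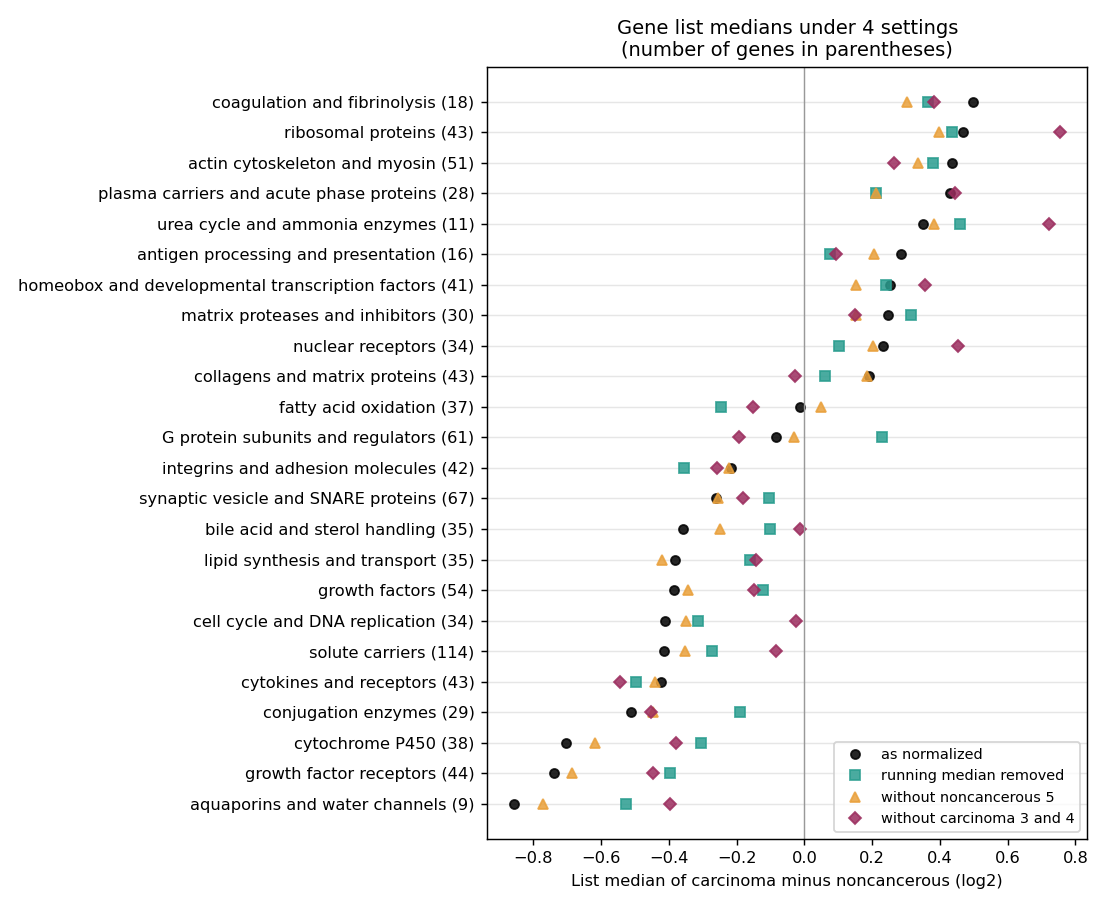
Median difference between carcinoma and noncancerous liver (log2) of 24 gene lists, as normalized, with the running median removed, without noncancerous 5 and without carcinoma 3 and 4. Aquaporins, growth factor receptors and cytochrome P450 lie furthest below 0 as normalized and come nearer to it with the running median removed, while ribosomal proteins stay between 0.40 and 0.76.

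**Figure D5:**
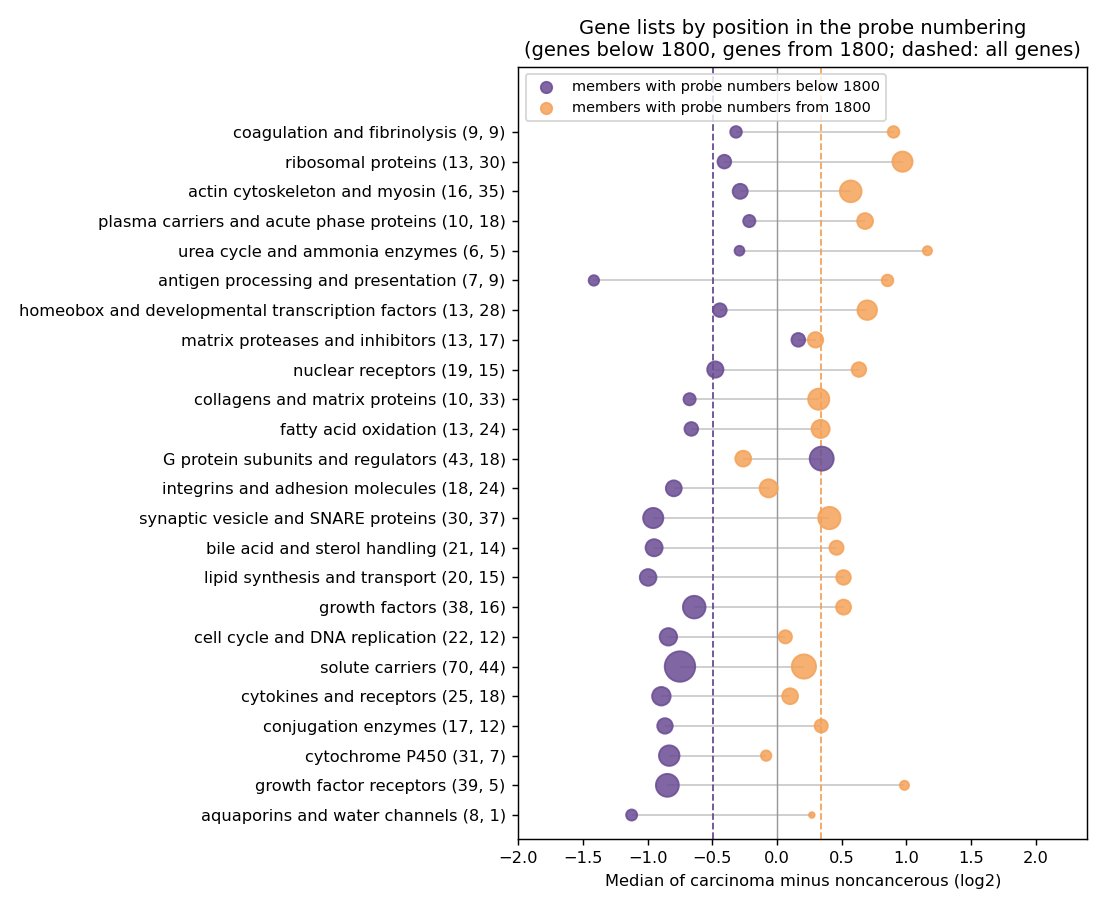
Median difference (log2) of the same 24 lists, split into members with probe numbers below 1800 and from 1800 on; the area of a point grows with its number of genes and dashed lines mark the medians of all genes in each part. In 23 lists the low-number members lie to the left, and in the G protein list they lie to the right.

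Among liver functions, the cytochrome P450 enzymes, which oxidize drugs, steroids and fatty acids, lay below 0 in 32 of 38 genes (median -0.70). At an unadjusted p under 0.05 in limma, 0 were higher and 5 (13.2%) lower, against 6.06% of all genes and 12.6% of those with low numbers. The groups did not overlap for 1 below the noncancerous values, where 1.44% of all genes did not. Of the 38, 31 (81.6%) had numbers below 1800, where their median was -0.83 against -0.50 for all genes. After removal of the running median the list median was -0.31 with 24 below 0 (50.2% of all genes), and without carcinoma 3 and 4 it was -0.38. Cyp3a2, a drug-oxidizing enzyme of male rat liver, had values of -0.93, 2.14, 1.84, -0.012 and 3.27 in noncancerous 1 to 5 and -3.88, -0.42, -0.51, -0.48 and -1.79 in carcinoma 1 to 5, carcinoma 1 being at the lower limit. Its groups overlapped through noncancerous 1 alone. Its difference was -2.68 (-4.23 to -1.12), and with the running median removed it was -1.86 (-3.41 to -0.31). With the running median removed Cyp1b1, which also acts outside the liver, differed by -1.74 (-3.23 to -0.24), Cyp1a1, which aromatic hydrocarbons induce, by -1.58 (-3.32 to 0.17), and likewise Cyp2c6v1 by -1.04 (-2.68 to 0.60). Cyp21a1, a steroid hydroxylase of the adrenal, lay furthest the other way, at 1.2 (-0.20 to 2.59) as normalized and 0.87 after the removal. Several of these enzymes have close copies whose signals a probe may share.

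The conjugation enzymes, which attach glutathione, glucuronide, sulfate or acetyl groups, lay below 0 in 18 of 29 genes (median -0.51; -0.19 with the running median removed). By limma's unadjusted p under 0.05, 1 was higher and 3 were lower. The list median was -0.30 without noncancerous 3. Gsta4, a glutathione transferase for lipid peroxidation products, differed by -1.78 (-3.23 to -0.33), Sult1c3, a sulfotransferase, by -1.71 (-3.67 to 0.25) and by -0.31 without carcinoma 3 and 4 (-0.88 without carcinoma 3 alone), Nat2, an acetyltransferase, by -1.6 (-3.46 to 0.25), and Ugt2b37, a glucuronosyltransferase, by -1.55 (-2.87 to -0.22). Sult1c2a differed the other way, by 1.56 (0.055 to 3.06). The values of Gsta4 in noncancerous 1 and of Sult1c3 in carcinoma 3 were at the lower limit. Without the running median Sult1c3 was at -1.08 and Ugt2b37 was at -0.83.

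The enzymes of the urea cycle and of ammonia handling were split. Otc, ornithine transcarbamylase, a mitochondrial step of the urea cycle, had values of 3.0, 3.27, 1.13, 1.24 and 1.98 in noncancerous 1 to 5 and -3.15, -0.90, -0.41, 0.046 and -0.15 in carcinoma 1 to 5. Every noncancerous value was above 1 and the carcinoma values were near or below 0. The means were 2.13 ± 0.98 in noncancerous liver, -0.91 ± 1.3 in carcinoma and -0.15 ± 1.55 in control liver (SD, n = 5 each), and the difference was -3.04 (95% interval -4.58 to -1.49, limma adjusted p = 0.224). After removal of the running median it was -2.25 (-4.03 to -0.46) and the groups overlapped. Cps1, which makes the carbamoyl phosphate that Otc uses, had a mean of -0.26 ± 0.95 in noncancerous liver and 1.02 ± 0.78 in carcinoma (SD, n = 5 each), a difference of 1.29 (0.21 to 2.36). Gls2, the liver glutaminase that frees ammonia, had values of -0.29, -0.98, -1.89, -3.88 and -0.16 in noncancerous 1 to 5 and 0.57, -0.018, 1.28, 1.53 and 0.38 in carcinoma 1 to 5 that did not overlap, with a difference of 2.19 (0.69 to 3.69). With the running median removed the groups of Gls2 overlapped. The aminotransferases Got1 and Gpt differed by 1.09 (-0.0048 to 2.18) and 1.16 (-0.86 to 3.18). Of the 11 genes 6 lay above 0 (median 0.35), and 9 with the running median removed (0.46). Leaving out 1 sample moved the median from 0.15 (without carcinoma 2) to 0.74 (without carcinoma 4). In limma, at an unadjusted p under 0.05, 2 were higher and 1 was lower. Removing the running median put Got1 at 0.50 and Gpt at 0.60. When 1 sample was left out, Got1 came to 0.64 without noncancerous 4 and Gpt came to 0.23 without noncancerous 4.

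Proteins secreted into blood lay mostly above 0. The plasma carriers and acute phase proteins lay above 0 in 22 of 28 genes (median 0.43), with 4 higher and 1 lower at an unadjusted p under 0.05, and their median was 0.21 with the running median removed. Without noncancerous 5 it was 0.21, and 0.0042 when the running median was removed as well. Without noncancerous 1 it was 0.81. Ttr, the carrier of thyroid hormone and retinol-binding protein, differed by 1.92 (0.29 to 3.54), and A2m, a protease inhibitor of the acute phase, by 1.64 (0.39 to 2.89). Fetub, a liver-made protease inhibitor, differed by 1.5 (-0.21 to 3.22). Mt1, a member of the list that binds metals inside cells and is not a plasma protein, differed by 1.94 (-0.13 to 4.02). Serpina7, the thyroxine-binding globulin, lay furthest the other way, with values of -0.53, 3.09, 1.94, 2.26 and 2.98 in noncancerous 1 to 5 and -2.0, 0.33, -0.49, -0.026 and -0.13 in carcinoma 1 to 5 and a difference of -2.41 (-4.16 to -0.67). Noncancerous 1 alone lay within the range of the carcinomas. Free of the running median, Fetub was at 0.99 and Serpina7 was at -1.58.

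The coagulation and fibrinolysis genes lay above 0 in 12 of 18 (median 0.50; 0.36 with the running median removed and 0.22 without carcinoma 1), with 4 higher and 0 lower at an unadjusted p under 0.05. Plau, urokinase, which turns plasminogen into plasmin at cell surfaces, had values of 1.96, -1.24, -2.58, 0.44 and 0.068 in noncancerous 1 to 5 and 2.01, 2.35, 1.98, 0.61 and 1.28 in carcinoma 1 to 5. Noncancerous 1 lay within the range of the carcinomas and the other noncancerous samples below it. The probe number of Plau was among the low ones, and its difference was 1.92 (0.60 to 3.23) as normalized and 2.29 (1.01 to 3.56) with the running median removed. Tfpi, an inhibitor of tissue factor, differed by 1.54 (0.42 to 2.67), and Thbd, thrombomodulin of endothelial cells, by 1.09 (0.042 to 2.14). The removal of the running median left Tfpi at 0.96 and Thbd at 0.69.

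Bile acid and sterol genes lay below 0 in 19 of 35 (median -0.36; -0.10 with the running median removed, -0.012 without carcinoma 3 and 4 and -0.067 without carcinoma 4 alone, and -0.66 without carcinoma 1). With carcinoma 3 and 4 left out and the running median removed together the list median was 0.07. Of these genes, at an unadjusted p under 0.05, 2 were higher and 3 lower. The organic anion transporters Slco1a3 and Slco1a1 did not overlap between groups as normalized, and both overlapped with the running median removed. Slco1a3 had values of 0.097, 2.1, 0.032, 1.54 and 2.91 in noncancerous 1 to 5 and -0.68, -1.64, -0.58, -0.39 and -1.41 in carcinoma 1 to 5 and a difference of -2.28 (-3.56 to -1.0), and Slco1a1 a difference of -1.78 (-3.13 to -0.43). Cyp7a1, the rate-limiting enzyme of bile acid synthesis, differed by -1.78 (-3.62 to 0.065), and Sqle, squalene epoxidase of cholesterol synthesis, by -1.57 (-2.87 to -0.26). Nr0b2, the nuclear receptor SHP that represses Cyp7a1, lay furthest the other way, with values of 0.43, -1.83, -2.92, -1.16 and -1.32 in noncancerous 1 to 5 and 0.63, 1.65, 0.73, 0.83 and 0.67 in carcinoma 1 to 5. Its groups did not overlap as normalized, and its difference was 2.26 (0.93 to 3.59). With the running median removed its groups overlapped and the difference was 1.66 (0.29 to 3.03).

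Lipid synthesis and transport genes lay below 0 in 23 of 35 (median -0.38; -0.16 with the running median removed, -0.24 without carcinoma 3 and -0.62 without carcinoma 1), with 3 higher and 5 lower at an unadjusted p under 0.05. The list median was 0.0065 with carcinoma 3 and 4 left out and the running median removed together. The fatty acid carriers Fabp2, Fabp5 and Fabp7 differed by -1.85 (-2.87 to -0.83), -1.56 (-2.82 to -0.30) and -1.9 (-3.26 to -0.54), and Apoa4, an apolipoprotein of chylomicrons and high-density lipoprotein, by -2.24 (-3.8 to -0.69). Apoe, the apolipoprotein through which remnants are taken up, lay the other way, with values of -0.30, -3.28, -2.43, 0.29 and -1.63 in noncancerous 1 to 5 and 1.29, -0.018, 2.49, 1.29 and 2.39 in carcinoma 1 to 5. Carcinoma 2 was the only carcinoma within the noncancerous range, and the difference was 2.96 (95% interval 1.5 to 4.42, limma adjusted p = 0.224). Taking out the running median gave 2.46 (0.81 to 4.11).

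Fatty acid oxidation genes had a median of -0.014 over 37 genes, and -0.25 with the running median removed, with 4 higher and 2 lower at an unadjusted p under 0.05. Acsl1, which activates long-chain fatty acids, had values of 0.71, 1.61, 1.09, 1.92 and 1.76 in noncancerous 1 to 5 and -0.20, -0.94, -1.43, -0.83 and 1.03 in carcinoma 1 to 5, of which only carcinoma 5 lay within the noncancerous range. Its difference was -1.9 (-3.14 to -0.65) as normalized and -1.57 (-2.66 to -0.49) with the running median removed. Scp2, a peroxisomal thiolase and lipid carrier, differed by -1.63 (-2.76 to -0.49), and the acyl-CoA dehydrogenases Acads and Acadl by -0.94 (-2.01 to 0.14) and -0.77 (-1.93 to 0.39). Pex6, needed to import peroxisomal enzymes, differed the other way, by 2.22 (0.48 to 3.96). Without the running median Acads was at -0.62.

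The 43 ribosomal protein genes lay above 0 in 31 (median 0.47), and the median was 0.44 with the running median removed, 0.76 without carcinoma 3 and 4 and 0.24 without carcinoma 1. Below an unadjusted p of 0.05, 5 were higher and 0 lower, and with the running median removed 2 and 0. The 13 with low numbers had a median of -0.41, and the 30 with high numbers one of 0.97. By sample the list median was 1.08 in carcinoma 1 and 0.92 in carcinoma 5 but -0.28 in carcinoma 2, -0.013 in carcinoma 3 and 0.14 in carcinoma 4, and between -0.59 and 0.23 in noncancerous liver. Carcinoma 1 and 5 thus stood above the others, whose list medians lay within the noncancerous range. Rps15, of the small subunit, had values of -1.0, -3.54, -3.2, -1.32 and -2.62 in noncancerous 1 to 5 and -0.93, 0.22, 0.87, 0.51 and 0.043 in carcinoma 1 to 5, which did not overlap by the margin between carcinoma 1 and noncancerous 1. Rpl28, Rpl41 and Rpl15 of the large subunit differed by 1.75 (0.39 to 3.12), 1.4 (0.19 to 2.6) and 1.2 (0.13 to 2.26), and Rpl11 the other way by -0.85 (-2.16 to 0.45), or 0.30 without carcinoma 3 and 4. Removing the running median put Rpl41 at 0.91, Rpl15 at 0.65 and Rpl11 at -0.42. When 1 sample was left out, Rpl11 came to -0.40 without carcinoma 3.

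The actin cytoskeleton and myosin genes, which shape and move cells, lay above 0 in 36 of 51 (median 0.44) and in 39 with the running median removed (0.38). At an unadjusted p under 0.05, 7 were higher and 3 lower, against 6.88% and 6.06% of all genes, and 2 did not overlap above and 1 below the noncancerous values, against 1.29% and 1.44%. By sample, with the running median removed, the list median was 0.34, 0.049, 0.40, 0.054 and 0.044 in carcinoma 1 to 5 and -0.089, -0.19, -0.049, -0.086 and -0.27 in noncancerous 1 to 5, so the list medians of the groups did not overlap. As normalized they met: noncancerous 3 had 0.042 and carcinoma 5 had 0.026. Beside Coro7 and Actb, Myo1e, a membrane-bound myosin, differed by 1.81 (0.20 to 3.43), and Sptan1, a spectrin chain, by 1.81 (0.14 to 3.48), while Tpm1, a tropomyosin, lay the other way by -2.12 (-3.44 to -0.81). Free of the running median, Tpm1 was at -1.39. With a single sample dropped, Sptan1 came to 1.16 without noncancerous 4.

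The 43 collagens and matrix proteins lay above 0 in 28 (median 0.19), with 4 higher and 1 lower at an unadjusted p under 0.05, and the median was 0.062 with the running median removed, -0.027 without carcinoma 3 and 4, 0.090 without carcinoma 4 alone and 0.37 without carcinoma 1. Col3a1, the chain of type III collagen, had values of -1.46, 0.022, -1.64, -0.76 and -1.47 in noncancerous 1 to 5 and -0.23, 0.60, 0.51, 2.72 and 0.71 in carcinoma 1 to 5. Carcinoma 1 alone lay within the noncancerous range, and the difference was 1.92 (0.83 to 3.02), or 1.55 (0.55 to 2.55) with the running median removed. After that removal Col1a1, of type I collagen, was at 0.56 (-0.49 to 1.61), and Mgp, a matrix protein that keeps tissue from calcifying, at 1.26 (-0.081 to 2.61). Tnr, a tenascin of nervous tissue, differed by 1.75 (0.26 to 3.25). Lox, which cross-links collagen, lay the other way, with values of 0.36, 1.95, -0.33, 2.73 and 1.51 in noncancerous 1 to 5 and -1.98, -0.074, -0.51, -0.087 and -1.98 in carcinoma 1 to 5 and a difference of -2.17 (-3.4 to -0.94). The removal of the running median left Tnr at 1.07.

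The 30 matrix proteases and inhibitors lay above 0 in 22 (median 0.25; 0.31 with the running median removed and 0.15 without noncancerous 5), 4 higher and 0 lower at an unadjusted p under 0.05. Beside Plau these were led by Adam1a, a membrane metalloprotease, at 1.8 (0.46 to 3.14), Furin, which activates proproteins, at 1.37 (-0.22 to 2.97), and Bsg, basigin, an inducer of matrix proteases, at 1.24 (0.073 to 2.4), while Mmp9, a gelatinase, was at -1.35 (-2.88 to 0.18). Without the running median Furin was at 0.85 and Bsg was at 0.70. With a single sample dropped, Furin came to 0.73 without noncancerous 2.

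Integrins and adhesion molecules lay below 0 in 29 of 42 genes both as normalized and with the running median removed (medians -0.22 and -0.35), and the median was -0.47 without noncancerous 4. By limma's unadjusted p under 0.05, 2 were higher and 5 lower. Cdh1, E-cadherin, which joins epithelial cells, had values of 0.28, 1.32, 0.0071, 0.028 and 0.70 in noncancerous 1 to 5 and -3.88, -0.018, -1.33, 0.015 and -2.35 in carcinoma 1 to 5. Carcinoma 1, 3 and 5 lay far below every noncancerous sample, carcinoma 1 at the lower limit, while carcinoma 2 and 4 were close to noncancerous 3 and 4. The difference was -1.98 (-3.53 to -0.43), and -2.04 (-3.44 to -0.63) with the running median removed. Vcam1, which binds leukocytes, differed by -1.65 (-3.23 to -0.066), Pcdhb12, a protocadherin, by -2.59 (-4.37 to -0.81), and Cntn2, a contactin, by -1.67 (-2.83 to -0.52), while F11r, the tight junction protein JAM-A, lay the other way at 1.94 (0.50 to 3.37). Removing the running median put Cntn2 at -0.87.

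Growth factor receptors lay below 0 in 34 of 44 genes (median -0.74), and in 30 with the running median removed (-0.40). In limma, at an unadjusted p under 0.05, 0 were higher and 9 lower, 20.5% of the list against 6.06% of all genes. The groups did not overlap for 4 below the noncancerous values, where 1.44% of all genes did not. Of the 44, 39 had numbers below 1800, where 191 of all 1511 genes (12.6%) were lower at an unadjusted p under 0.05. Of those 1511, 47 did not overlap below the noncancerous values. After removal of the running median 1 was higher and 5 were lower, against 5.71% and 4.09% of all genes. The groups then did not overlap for 2 below the noncancerous values, against 0.647% of all genes. Igf1r, the receptor of insulin-like growth factors, had values of 0.17, 1.1, 0.36, 0.65 and 2.83 in noncancerous 1 to 5 and -0.92, 1.06, -1.54, -1.16 and -1.5 in carcinoma 1 to 5 and a difference of -1.83 (-3.13 to -0.53). Carcinoma 2 lay among the noncancerous samples, and the other carcinomas below them. Kit, the stem cell factor receptor of progenitor and mast cells, differed by -1.67 (-2.81 to -0.53), and Acvrl1, a receptor of the transforming growth factor family on endothelium, by -2.0 (-3.45 to -0.55). Csf1r, the macrophage growth factor receptor, lay furthest the other way at 1.45 (-0.37 to 3.26), and at 1.83 (0.14 to 3.53) with the running median removed. Free of the running median, Acvrl1 was at -1.2.

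The growth factors lay below 0 in 33 of 54 genes (median -0.39; -0.12 with the running median removed), with 5 higher and 8 lower at an unadjusted p under 0.05. Fgf5 and Fgf9, of the fibroblast growth factor family, did not overlap between groups as normalized and differed by -2.34 (-3.67 to -1.02) and -1.64 (-2.63 to -0.65). Both overlapped with the running median removed. Pgf, placental growth factor of the vascular endothelial growth factor family, had values of 0.90, 1.8, 0.60, 0.29 and 1.56 in noncancerous 1 to 5 and 0.035, -0.66, -2.83, -1.34 and -1.78 in carcinoma 1 to 5 and a difference of -2.35 (-3.56 to -1.13). Hgf, the hepatocyte growth factor made by stellate cells, differed by -1.58 (-2.75 to -0.41), and Igf2, an insulin-like growth factor of fetal liver, by -0.93 (-1.95 to 0.085). Ctf1, the cytokine cardiotrophin, lay the other way at 2.76 (0.52 to 5.01). The removal of the running median left Igf2 at -0.60.

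Cytokines and their receptors lay below 0 in 32 of 43 genes (median -0.42). This list moved away from 0 with the running median removed, to -0.50 with 30 below 0, and was at -0.54 without carcinoma 3 and 4, at -0.44 without noncancerous 5 and at -0.72 without noncancerous 1. Of these genes, at an unadjusted p under 0.05, 2 were higher and 5 lower, and with the running median removed 3 and 4. Il2rb, the receptor chain for interleukins 2 and 15 on T and NK cells, had values of -0.0086, 0.94, -0.0094, 1.36 and 0.81 in noncancerous 1 to 5 and -0.54, -0.66, -1.2, -0.86 and -0.68 in carcinoma 1 to 5. Its groups did not overlap as normalized, and the difference was -1.41 (-2.36 to -0.45). Il4r, the interleukin 4 receptor, differed by -1.97 (-3.23 to -0.70), Il1rl1, the interleukin 33 receptor, by -1.96 (-3.2 to -0.73), and Il9r by -1.39 (-2.88 to 0.088). Il1r2, a decoy receptor for interleukin 1, lay the other way, with values of -1.6, -2.07, -3.36, 0.21 and -2.4 in noncancerous 1 to 5 and -1.21, 0.75, 2.34, 1.34 and 0.087 in carcinoma 1 to 5 and a difference of 2.5 (0.89 to 4.12). Without the running median Il9r was at -0.56.

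Cell cycle and DNA replication genes lay below 0 in 23 of 34, both as normalized and with the running median removed (medians -0.41 and -0.31), and the median was -0.024 without carcinoma 3 and 4 and -0.23 without noncancerous 2. With carcinoma 3 and 4 left out and the running median removed together the list median was 0.10. Below an unadjusted p of 0.05, 1 was higher and 5 lower. Ccnd3, cyclin D3, had values of 1.88, 2.22, 1.26, 0.46 and 0.57 in noncancerous 1 to 5 and 0.48, -1.02, -1.89, -1.12 and -0.16 in carcinoma 1 to 5 and a difference of -2.02 (-3.28 to -0.76); its groups overlapped only by carcinoma 1 and noncancerous 4 as normalized, and with the running median removed they did not overlap and the difference was -1.74 (-2.87 to -0.61). Plk1, a mitotic kinase, had values of 0.13, 1.72, 0.52, -0.17 and 0.92 in noncancerous 1 to 5 and -0.91, -0.86, -2.2, -0.96 and -0.42 in carcinoma 1 to 5 that did not overlap and differed by -1.69 (-2.74 to -0.65). Wee1, which holds cells before mitosis, differed by -1.9 (-3.43 to -0.38), and Cdc20, an activator of mitotic exit, by -1.51 (-3.11 to 0.084). Ccnd1, cyclin D1, differed by -1.45 (-2.83 to -0.065), and -0.95 without noncancerous 1. Stmn1, a microtubule regulator of dividing cells, lay the other way at 1.12 (0.044 to 2.2). Removing the running median put Plk1 at -1.12, with groups that then overlapped, and Stmn1 at 0.46. When 1 sample was left out, Stmn1 came to 0.70 without noncancerous 4.

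Solute carriers lay below 0 in 76 of 114 genes (median -0.42; -0.27 with the running median removed, and -0.085 without carcinoma 3 and 4 or -0.28 without carcinoma 4 alone). At an unadjusted p under 0.05, 3 were higher and 14 (12.3%) lower, against 6.06% of all genes and 12.6% of those with low numbers that were lower. The groups did not overlap for 1 above (1.29% of all genes) and 6 below (1.44% of all genes) the noncancerous values. With the running median removed 4 did not overlap below, namely Slc9a3, Slc18a2 and Slc18a3 again and Slc25a20, the carnitine carrier of mitochondria. Beside Slc9a3, Slc18a3 and Slco1a3, Slc12a2, a sodium-potassium-chloride cotransporter, differed by -2.03 (-3.72 to -0.34), and Slc26a2, a sulfate transporter, the other way by 2.15 (0.78 to 3.52). Of the 9 aquaporins, which carry water and glycerol, 8 had low numbers and lay below 0 (median of all 9 -0.86, or -0.53 with the running median removed). Without carcinoma 3 and 4 the aquaporin median was -0.40, and -0.099 when the running median was removed as well. Aqp9, the glycerol channel of hepatocytes, had values of -0.065, 0.85, 1.12, 0.50 and 1.3 in noncancerous 1 to 5 and -2.76, 0.53, -0.90, -0.87 and -0.28 in carcinoma 1 to 5 and a difference of -1.6 (-2.78 to -0.42). Aqp7, Aqp4 and Aqp3 differed by -1.53 (-3.0 to -0.063), -1.51 (-2.94 to -0.089) and -1.39 (-2.72 to -0.062), in which carcinoma 4 was the lowest sample each time; without it Aqp7 was at -0.74 and Aqp3 at -0.86. Aqp6 was at 0.27 (-0.95 to 1.49). Free of the running median, Aqp7 was at -0.79 and Aqp6 was at 0.0082. With a single sample dropped, Aqp6 came to -0.15 without noncancerous 4.

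Among transcription factors, the nuclear receptors lay above 0 in 20 of 34 genes (median 0.23; 0.10 with the running median removed), with 4 higher and 0 lower at an unadjusted p under 0.05, and 5 and 0 with the running median removed. The list median was 0.077 without carcinoma 2. Hnf4a, which sets much of the hepatocyte programme, had values of -0.68, -0.16, -1.95, -0.73 and -0.78 in noncancerous 1 to 5 and -0.64, 0.94, 0.80, 1.5 and 0.79 in carcinoma 1 to 5. Carcinoma 1 lay among the noncancerous samples as normalized, and with the running median removed the groups did not overlap and the difference was 0.97 (0.21 to 1.74). Nr1d2, a receptor of the circadian clock, differed by 2.32 (0.54 to 4.09), Rxrg, a retinoid X receptor, by 1.48 (-0.025 to 2.98), and Nr4a3, an early response receptor, the other way by -1.1 (-2.29 to 0.085). The homeobox and developmental factors lay above 0 in 25 of 41 (median 0.25; 0.24 with the running median removed, 0.15 without noncancerous 5 and 0.44 without noncancerous 1), with 7 higher and 1 lower at an unadjusted p under 0.05. Hoxc4, a body axis factor, had values of -0.59, -0.64, -2.04, -1.05 and -0.88 in noncancerous 1 to 5 and -0.36, 1.26, 2.06, 1.3 and 1.86 in carcinoma 1 to 5 and a separation of 2.26 (95% interval 1.19 to 3.33, limma adjusted p = 0.224) between the means. The neural factors Neurod1 and Pou3f4 differed by 3.14 (0.69 to 5.59) and 1.8 (0.56 to 3.05), Hes3 by 3.16 (-0.084 to 6.4), and Pou3f2 the other way by -1.87 (-3.85 to 0.11). The removal of the running median left Pou3f4 at 1.15 and Pou3f2 at -1.18. When 1 sample was left out, Pou3f2 came to -1.15 without carcinoma 4.

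Genes of synaptic vesicles and SNARE proteins, which dock and fuse vesicles in all cells and in nerve endings, lay below 0 in 41 of 67 (median -0.26; -0.11 with the running median removed and -0.066 without carcinoma 1), with 4 higher and 10 lower at an unadjusted p under 0.05. The largest difference of the list was that of Stx1a, a syntaxin of the plasma membrane, with values of 3.47, 0.022, 2.8, 1.9 and 3.05 in noncancerous 1 to 5 and 2.78, -5.21, -4.54, -5.81 and 2.14 in carcinoma 1 to 5. Carcinoma 1 and 5 lay among the noncancerous samples and the other 3 far below them, carcinoma 2 at the lower limit. The difference was -4.38 (-6.97 to -1.78). Stx6, a syntaxin of the Golgi, differed by -2.5 (-4.32 to -0.69) and by -1.45 without carcinoma 5, which was at the lower limit. Sv2a, a vesicle membrane protein, differed by -2.33 (-4.33 to -0.32) and by -0.63 without carcinoma 3 and 4, and Syn2, a synapsin, by -1.95 (-3.66 to -0.23). Cplx1, a complexin, lay the other way, with values of -0.059, -0.51, -1.28, -1.62 and -0.78 in noncancerous 1 to 5 and -0.032, 3.33, 3.79, 2.5 and 1.41 in carcinoma 1 to 5 and a difference of 3.05 (-0.021 to 6.12). The G protein subunits and regulators, 43 of 61 with low numbers, had a median of -0.083 as normalized and 0.23 with the running median removed, where 13 were higher (5.71% of all genes) and 2 lower (4.09% of all genes) at an unadjusted p under 0.05 in place of 4 and 2. Without carcinoma 5 the median as normalized was 0.090. Rgs14, Gna15, Pde1c and Grk4 differed by -2.09 (-3.67 to -0.51), -1.43 (-2.59 to -0.27), -1.41 (-3.62 to 0.81) and -1.02 (-2.23 to 0.19), and Pde3b, a phosphodiesterase that insulin activates, the other way by 1.98 (-0.084 to 4.04). Without the running median Gna15 was at -0.95 and Pde1c was at -0.61. With a single sample dropped, Sv2a came to -1.54 without carcinoma 4, Rgs14 came to -1.36 without carcinoma 5, Pde1c came to -0.54 without carcinoma 4 and Pde3b came to 1.09 without noncancerous 2.

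Afp, Gpc3, Gstp1 and Ggt1, often used to recognise rat hepatocellular carcinoma, overlapped between the groups, and the intervals of their differences included 0. A longer list of 31 preneoplastic focus and oncofetal markers, not among the lists above, had a median of -0.24 (0.039 with the running median removed). At an unadjusted p under 0.05 in limma, 4 of these were higher and 3 lower, against 6.88% and 6.06% of all genes. The groups did not overlap for 2 above the noncancerous values (1.29% of all genes), and for 0 with the running median removed. Afp, alpha-fetoprotein, had values of 0.41, -0.47, -1.3, -0.062 and -0.33 in noncancerous 1 to 5 and -0.13, -0.48, 1.58, 0.068 and 0.59 in carcinoma 1 to 5 and a difference of 0.68 (-0.34 to 1.69), with carcinoma 3 the highest. Gpc3, glypican 3, differed by -0.73 (-2.74 to 1.27) as normalized and by 0.11 with the running median removed, Gstp1, the placental glutathione transferase of preneoplastic foci, by -0.25 (-1.65 to 1.15) and 0.12, and Ggt1, gamma-glutamyltransferase, by -0.87 (-1.92 to 0.18) and -0.14. Myc differed by -0.51 (-2.18 to 1.17), Alb, albumin, by 0.24 (-2.11 to 2.6) with noncancerous 2 at -5.40, and Cyp2c11, the main P450 of male rat liver, by -0.19 (-1.41 to 1.03). Pemt, which makes phosphatidylcholine from phosphatidylethanolamine, differed by 0.63 (-0.31 to 1.57), and Gnmt, which uses up methyl donor, by 0.99 (-0.40 to 2.38). Each of these intervals included 0 as well. Removing the running median put Myc at -0.13, Cyp2c11 at 0.14, Pemt at 0.12 and Gnmt at 0.34. When 1 sample was left out, Afp came to 0.36 without carcinoma 3, Gpc3 came to -0.13 without carcinoma 1, Gstp1 came to 0.031 without noncancerous 4, Myc came to 0.025 without carcinoma 4, Alb came to -1.13 without noncancerous 2, Cyp2c11 came to 0.043 without noncancerous 1 and Gnmt came to 0.58 without noncancerous 1.

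Markers of the cells that cirrhotic tissue and tumour can hold were summed up as the mean log2 ratio over the measured markers of a list in each sample, and ranges are over the 5 samples of a group. The 16 of 23 hepatocyte markers measured ranged from -0.40 to 0.61 over carcinomas and from -0.83 to 0.92 over noncancerous samples, with 8 above 0 in the difference. The 15 of 21 stellate cell and myofibroblast markers ranged from -0.32 to 0.35 and from -0.66 to -0.029, 11 above 0 (12 with the running median removed), and included Col3a1 and Col1a1. The 8 of 14 cholangiocyte markers ranged from -0.72 to 0.80 and from -0.12 to 1.05, 1 above 0, and 6 of the 8 had low numbers. The 7 of 24 macrophage markers ranged from -0.032 to 0.88 and from -1.43 to 0.38, 6 above 0, and the 13 of 23 T and NK cell markers, Il2rb among them, from -0.58 to 0.11 and from -0.24 to 0.73, 6 above 0. The 8 of 19 endothelial markers ranged from -0.70 to -0.027 in carcinoma and from -0.055 to 0.30 in noncancerous liver, 4 above 0. The 3 of 15 B and plasma cell markers ranged from -0.17 to 0.64 and from -1.38 to 0.27, 3 above 0, and the 10 of 18 neutrophil and mast cell markers, Kit among them, from -0.24 to 0.21 and from -0.30 to 0.24, 5 above 0. These ranges overlapped between groups for each of the 8 cell types, and their part in the results above was not tested.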

How the data were processed

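The 15 liver samples, 5 a group, were measured on microarrays of 3757 probes. The deposited values are a ratio per probe with its median over the arrays at 1 (tolerance 1e-06) and a lower limit of 0.01; what scanner, reference and software made them is not given in the sources used here, and 0 sample columns were left unused. Ratios were quantile-normalized, put on the log2 scale and fitted for all 15 samples with limma 3.58.1 in R 4.3.3 (group means, eBayes with a mean-variance trend, 12 residual degrees of freedom, two-sided, Benjamini-Hochberg adjusted over 3757 probes). Precision is limited by how many arrays there are. The fit was tested on simulated data. The fits were repeated after removing, in each array, a running median over each probe and the 50 to either side along the probe numbering, and without noncancerous 5.

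The platform annotation gave 3440 probes 1 symbol, 4 probes several and 313 none listed; 3429 matched a RefSeq gene ID and no symbol needed updating. A gene with several probes (38 genes) was given by its probe of smallest spread inside the groups. Named were the genes past the adjusted p, the 12 furthest either way of those without overlap under both treatments, up to 4 leading members of each list described and the 1 furthest the other way, and 12 liver and tumour genes. Psmb9, Psme1, Tap2, B2m, Ctss and Slc25a20 were named after their values were seen. The members, the lists and these rules were chosen with earlier results of these data known. Lists were described by counts and medians, with no test. The main fit did not pair samples by replicate number, since the labels do not say whether equal numbers share an animal.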

Additional observations from a re-analysis of the deposited data

Results flagged for a closer look

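In 96 groups of 5 values checked, 1 sample stood apart from the other 4 in 8, where chance gives about 1 in 20. Among genes these were Hipk3 in noncancerous 5 at -1.96 (nearest other sample -0.71), Psmb8 in carcinoma 4 at -5.21 (nearest -1.0), Slc9a3 in noncancerous 1 at 3.09 (nearest 1.35) and Sp1 in noncancerous 3 at -2.28 (nearest -1.01), all in log2 units. Among list medians, the urea cycle and ammonia enzymes in noncancerous 3 stood at 0.55 (nearest -0.0086). The median of the fatty acid oxidation list in carcinoma 2 was -0.25 (nearest 0.049). The plasma carriers and acute phase proteins reached 0.87 in carcinoma 1 (nearest 0.14). The antigen processing and presentation list had a median of -0.16 in carcinoma 2 (nearest 0.15). The cause was not tested.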

How the results depend on the processing

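With 5 arrays a group the median interval reached 1.27 log2 units to either side, so differences smaller than that were mostly not detectable. Against 497 probes at an unadjusted p under 0.05 in limma (0 adjusted), array weights gave 756, noncancerous 5 left out with the running median removed 252, and leaving out 1 sample 336 to 673. Without noncancerous 5, 2 probes passed the adjusted p (Fgg at 4.02 and Zbtb7a at 4.42), and none did when any other single sample of the 2 groups was left out. The groups did not overlap for 102 probes, for 51 with the running median removed and for 58 with a wider window of 150 probes to either side. Leaving out 1 sample, which makes separation easier by construction, gave 118 to 293: 293 without noncancerous 1, 176 without noncancerous 3, 174 without noncancerous 4, 208 without carcinoma 1 and 185 without carcinoma 2. In settings chosen after seeing the data, 255 did not overlap without carcinoma 3 and 4 (234 with the running median removed), and 417 without noncancerous 1 and carcinoma 1. Of 143 named genes, 10 came to under 0.5 of the size of their difference, sign aside, when some 1 sample was left out. Aqp6, not among these, turned from 0.27 to -0.15 without noncancerous 4. In at least 1 setting 11 of the named genes changed sign, and the cause was not tested.

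With the running median removed (50, then 150 probes to either side) Cyp2c11 was at 0.14 and 0.072, Gpc3 at 0.11 and 0.018 and Gstp1 at 0.12 and 0.15; with noncancerous 5 left out as well they were at 0.35, 0.30 and 0.22. Gstp1 was at 0.15 as deposited and 0.17 with arrays scaled to the same median. Alb was at -0.16 with a pseudocount of 0.1 and at -0.55 with a floor at the 10th percentile. Leaving out 1 sample, Alb ranged from -1.13 to 0.87, Aqp6 from -0.15 to 0.56, Cyp2c11 from -0.45 to 0.043, Gstp1 from -0.64 to 0.031 and Myc from -0.85 to 0.025. Without carcinoma 3 and 4, and then with the running median removed too, Cyp2c11 was at 0.23 and 0.20, Fgb at 0.069 and 0.13, Gstp1 at 0.19 and 0.26, Myc at 0.57 and 0.72, Pde1c at 0.46 and 0.86 and Rpl11 at 0.30 and 0.42. With both, Gnmt was at -0.0035 and Pou3f2 at 0.0060.

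For equal replicate numbers the correlations of the deviations were 0.39, -0.21, 0.12, -0.12 and -0.24, and 1 of 5 pairs correlated best with its own number. That was replicate 1, at 0.39 against 0.064 at most with another number. Such correlations cannot decide whether a tumour and a cirrhotic sample came from 1 animal. With the replicate number as a block, 510 probes had an unadjusted p under 0.05, and with the running median removed as well 379, with 51 not overlapping; Cyp2c11 was then at 0.14, Gpc3 at 0.11 and Gstp1 at 0.12.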
